A study of Mus musculus with 24 samples.

Results

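The *Tcrg* and *Tcra/Tcrd* loci of the mouse encode the γ and δ chains of the T cell receptor (TCR). Described here are 9 transcripts from them in tumor T and NK cells: the γ constant genes *Tcrg-C1*, *Tcrg-C2*, *Tcrg-C3*, and *Tcrg-C4*, the γ variable genes *Trgv2*, *Tcrg-V1*, and *Tcrg-V7*, the δ constant gene *Trdc*, and the δ variable gene *Trdv1*. They are 9 of 32285 genes in the feature table and were chosen by symbol after *Tcrg-C2* and *Tcrg-C3* had shown lower levels in CD8+ T cells with PancVAX. Their levels by vaccination in CD8+ T cells, in all of them or in any subset, are therefore a description, and calls printed for that contrast support nothing. Tests were made on comparisons that did not serve for the choice, namely the antibodies, the preparation of the tumor, the presence of a TCR β (TRB) contig, and gates for NK cells and for a γδ T cell program.

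A T cell carries either an αβ or a γδ receptor, each paired with the CD3 chains. A γ gene is assembled in the thymus from a V and a J segment upstream of a constant gene, and each constant gene lies in a cluster with its own V segments, so that a V segment is mostly found with the constant gene of its cluster. The δ genes lie inside the α locus, and joining of a Vα to a Jα segment removes *Trdc* from that chromosome, whereas the γ locus of an αβ T cell stays in place. NK cells do not rearrange TCR genes but can transcribe unrearranged constant genes. IL-7 receptor signaling through STAT5 acts on the accessibility of the γ locus.

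In RefSeq's GRCm38 annotation the 7 γ genes lie in the order *Tcrg-V7*, *Tcrg-C1*, *Tcrg-C3*, *Tcrg-C2*, *Trgv2*, *Tcrg-V1*, *Tcrg-C4* over 174 kb at chr13:19178042-19352343. *Tcrg-V1* is 4.1 kb from *Tcrg-C4*, *Trgv2* 29.0 kb from *Tcrg-C2*, and *Tcrg-V7* 35.6 kb from *Tcrg-C1*. *Trdv1* and *Trdc* lie 261 kb apart at chr14:53881612-54146108. The constant genes *Tcrg-C1*, *Tcrg-C2*, and *Tcrg-C3* are close copies of each other, and how reads were divided between them is not stated in the sources, so that the 3 are uncertain as separate values.

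Panc02 tumors, from a murine pancreatic cancer line, were grown under the skin of male C57BL/6 mice, which received 1 of 8 treatments: isotype control, anti–PD-1, anti–CTLA-4, both antibodies, or each of these with PancVAX. PancVAX, a vaccine of 50 μg of each synthetic neoantigen peptide with AddaVax and a STING agonist, was given on days 12 and 19, with PBS in its place in the other 4 groups, so that peptides and adjuvants cannot be told apart. Anti–PD-1 was given from day 12 and anti–CTLA-4 on days 15 and 22, at 100 μg, and tumors were taken on day 38 by the methods. Mice of a treatment were pooled, and each treatment has 1 library of whole tumor and 1 of cells enriched on Percoll, which were also separate sequencing batches. Both libraries of a treatment were summed as its pool, which gave 4 pools with and 4 without PancVAX. The *P* values rest on the spread between pools, in an estimate shared between genes, and not on that between mice.

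The 16 libraries held 144994 barcodes, with 77132398–176233225 unique molecular identifiers (UMIs) each, of which 772–3086 came from the 9 genes. After filtering, 57355 cells were kept, of which 14928 were T and NK cells and 11254 were counted as CD8+ T cells. Clusters were drawn without any TCR gene, after alignment of the 2 preparations, and named from markers. All 10 exhaustion markers were raised in the exhausted-like cluster, 8 of 8 naive markers in the naive-like, 5 of 10 cytotoxic markers in the cytotoxic-like, 9 of 9 NK markers in the NK-like, and 10 of 10 markers in the γδ-like cluster. Of 83 cells of the γδ-like cluster from Percoll libraries, 36 (43.4%) nevertheless had a TCR β contig, so that its levels are those of a mixed cluster. A cluster led by *Ifit3* and *Ifit1* and another led by *Gzmd* and *Gzme* were counted as CD8+ T cells after their genes were seen. A further 777 T and NK cells lay in clusters led by genes of other cell types and were left out, 5.7% of T and NK cells with PancVAX and 4.36% without. Of the kept cells, 4171 had a barcode sequence that also occurred in another library, and 1085 of these were T and NK cells. Among CD8+ T cells with a TRB contig, no barcode was shared between libraries together with its TRB chain. This could not be checked in whole tumor libraries or in cells without a contig.

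The γ and δ transcripts came almost wholly from lymphocytes. Between 97% and 98.8% of the UMIs of each gene in kept cells lay in T and NK cells, where *Trgv2* had 7813 UMIs, *Tcrg-C2* 3726, *Tcrg-C4* 784, *Tcrg-C1* 764, *Trdc* 627, *Tcrg-V7* 474, *Tcrg-V1* 380, *Trdv1* 250, and *Tcrg-C3* 100. Most of the *Tcrg-C2* and *Trgv2* UMIs lay outside the γδ-like cluster: 93.1% and 93.3% lay in CD8+ T cells, and 74.4% and 71.5% in the exhausted-like cluster alone. *Trdc* was different, with 1.91% of its T and NK cell UMIs in the exhausted-like cluster.

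In CD8+ T cells, *Tcrg-C2*, the constant gene of the *Trgv2* cluster, was at 118 CPM (UMIs of the gene per 1e6 UMIs of the cells) with isotype control, 119 with anti–PD-1, 131 with anti–CTLA-4, and 116 with both antibodies. With PancVAX the same 4 backgrounds gave 43.2, 37.4, 38.7, and 37.8 CPM. The lowest pool without the vaccine was thus far above the highest pool with it, and the pools of each side were close to each other, at 121 ± 6.75 and 39.3 ± 2.67 CPM (SD, n = 4 each). *Trgv2* followed with 228, 241, 217, and 243 CPM without PancVAX and 115, 86.6, 89.9, and 107 CPM with it, in the same order of antibodies. *Tcrg-C4*, the constant gene of the *Tcrg-V1* cluster, was at 18.6, 15.9, 22.7, and 21.1 CPM without and 7.60, 5.83, 5.33, and 11.4 CPM with the vaccine. The 2 sides did not overlap for any of these 3 genes. The genes were chosen on this contrast, and 3824 of 10911 genes had an unadjusted *P* below 0.05 by edgeR on it. Nothing is therefore read from a lack of overlap, here or for the levels by vaccination below. The share of all genes without overlap is not given.

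The rarer γ transcripts separated less. *Tcrg-C3* was at 0.785–6.81 CPM without PancVAX and 0.124–0.999 CPM with it, and the sides overlapped through the pool with anti–PD-1 alone, at 0.785 CPM. *Tcrg-C1* averaged 13.0 ± 5.27 and 7.38 ± 2.46 CPM, and *Tcrg-V7* 15.2 ± 11.1 and 5.46 ± 4.53 CPM, both with overlap. *Tcrg-V1* averaged 8.13 ± 3.76 CPM without PancVAX and 6.16 ± 6.17 CPM with it, where 1 pool, all 3 agents, was at 15.4 CPM and the other 3 at 2.31–4.00 CPM.

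The δ genes differed in the direction of their means. *Trdc* was at 9.61–14.1 CPM in the pools without PancVAX and 2.96–9.19 CPM in those with it, with no overlap. Nothing is read from this either. *Trdv1*, a δ variable segment, was at 0.916–3.65 CPM without and 2.20–10.6 CPM with the vaccine. The highest value, again the pool with all 3 agents, rested on few cells: in its whole tumor library 27 *Trdv1* UMIs lay in 6 exhausted-like cells, and over all CD8+ T cells 10 cells held 35.5% of the *Trdv1* UMIs.

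**Figure D1:**
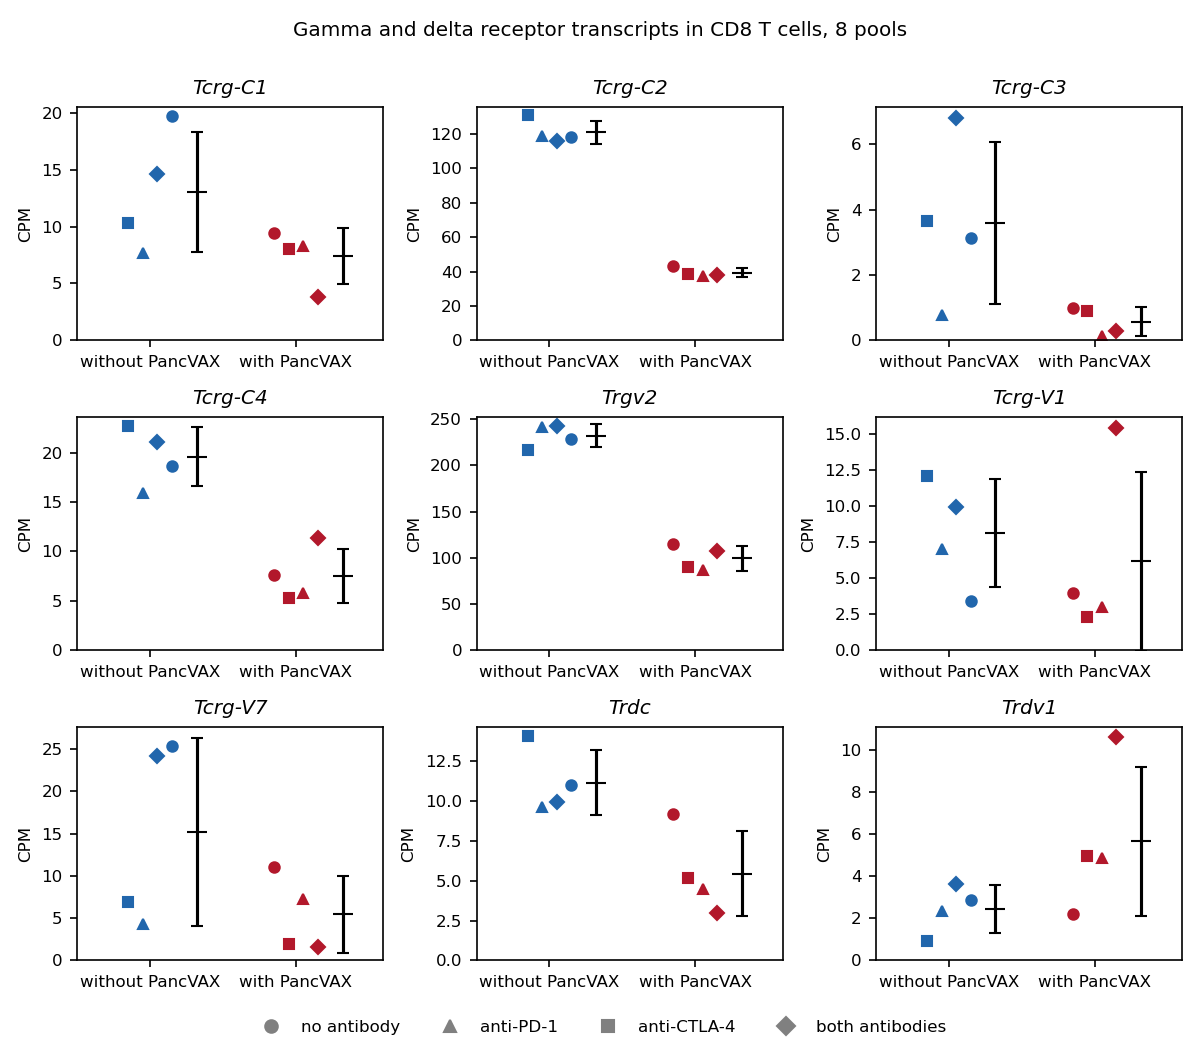
Levels of the 9 transcripts in CD8+ T cells of the 8 pools, in CPM on linear axes from 0, with symbols for the antibodies and bars for the mean ± SD of 4 pools. *Tcrg-C2*, *Trgv2*, *Tcrg-C4*, and *Trdc* have all 4 pools with PancVAX below all 4 without it, and *Tcrg-V1* and *Trdv1* have 1 high pool with PancVAX at 15.4 and 10.6 CPM. The genes were chosen on this contrast, so that the levels are a description.

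In the fit over all genes, 6 of the 9 transcripts were past the threshold (adjusted *P* below 0.05 and an absolute log2 fold change above 0.5) with a lower level and 1, *Trdv1*, with a higher level, where 11.0% of 10911 genes were past it in either direction. The log2 fold changes were -1.70 ± 0.08 (SE) for *Tcrg-C2*, -1.30 ± 0.10 for *Trgv2*, -1.44 ± 0.19 for *Tcrg-C4*, -2.81 ± 0.57 for *Tcrg-C3*, -0.91 ± 0.27 for *Tcrg-C1*, -1.19 ± 0.22 for *Trdc*, and 1.14 ± 0.34 for *Trdv1*. *Tcrg-V7* (-1.68 ± 0.59) and *Tcrg-V1* (-0.57 ± 0.39) were not past it. The genes were chosen on this contrast and nothing is read from the count. Without the pool of all 3 agents the value of *Trdv1* was 0.87, and without that of both antibodies the value of *Tcrg-C1* was -0.56.

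The make-up of the CD8+ T cells differed between the same pools. The exhausted-like cluster held 52.7%–64.8% of them without PancVAX and 14.9%–23.3% with it, and the cytotoxic-like cluster 3.91%–7.08% and 48.9%–60.2%. The naive-like cluster held 17.2%–31.7% without and 5.56%–13.5% with PancVAX. For each pool the levels were also recombined with 1 common mix of states, the share of UMIs per state in the pools without PancVAX. That mix had few cytotoxic-like cells, and ratios under another mix are not given. *Tcrg-C2* was then at 84.7 ± 11.0 CPM with PancVAX and 122 ± 10.5 CPM without, a ratio of 0.693 in place of 0.325. The same step took the ratio of *Trgv2* from 0.429 to 0.842, of *Tcrg-C4* from 0.385 to 0.732, of *Tcrg-C3* from 0.159 to 0.288, of *Tcrg-C1* from 0.566 to 0.827, of *Tcrg-V7* from 0.358 to 0.8, and of *Trdc* from 0.487 to 0.775. The ratio of *Tcrg-V1* went from 0.758 to 1.5, past 1, and that of *Trdv1* from 2.3 to 2.79, further from 1. With the mix held equal, the 4 *Tcrg-C2* values with PancVAX (73.3–95.2 CPM) still lay below the 4 without (110–133 CPM), whereas those of *Trgv2* overlapped (174–232 and 218–263 CPM). These values too are a description.

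Within single states the picture was uneven. In exhausted-like cells *Tcrg-C2* was at 103–130 CPM with PancVAX and 141–174 CPM without, and *Trgv2* at 224–281 and 277–361 CPM. In cytotoxic-like cells *Tcrg-C2* was at 6.05–10.3 CPM with PancVAX and, over only 30–88 cells per pool, at 6.13–72.0 CPM without. *Trgv2* in those cells did not overlap, at 18.3–32.3 and 58.4–184 CPM. In the *Ifit3 Ifit1* cluster *Tcrg-C2* was at 3.3–55.1 CPM with PancVAX and, over 122 cells, at 86.3–230 CPM without. In cycling-like cells it was at 13.6–35.3 CPM with PancVAX and, over 86 cells, at 59.1–165 CPM without. Its values overlapped in the *Gzmd Gzme* cluster, at 69.5–146 and 122–146 CPM. Nothing is read from these ranges. In naive-like cells *Tcrg-C2* (9.27–17.1 and 12.6–21.7 CPM) and *Trgv2* (24–66.3 and 26.0–49.4 CPM) overlapped, as did *Trdc* (32.4–49.3 and 28.1–59.7 CPM).

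**Figure D2:**
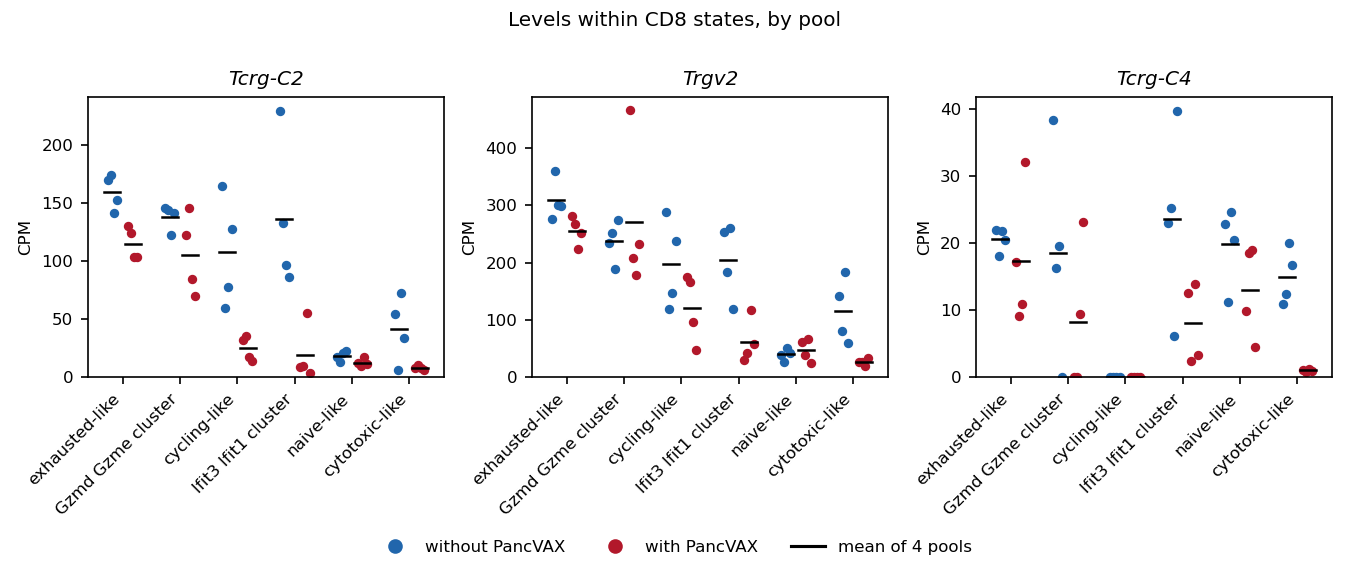
*Tcrg-C2*, *Trgv2*, and *Tcrg-C4* within each CD8+ state, in CPM on linear axes from 0, with 1 point per pool and a line for the mean of 4 pools. *Tcrg-C2* in exhausted-like cells was at 103–130 CPM with PancVAX and 141–174 CPM without, and in naive-like cells both sides overlapped.

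Across cell types, *Tcrg-C2* had its highest mean over the 8 pools in the exhausted-like cluster, at 137 ± 27.5 CPM (SD, n = 8), followed by the *Gzmd Gzme* cluster (122 ± 29.7), the γδ-like cluster (97.4 ± 84.5), the *Ifit3 Ifit1* cluster (77.7 ± 77.6), cycling-like cells (65.7 ± 54.8), cytotoxic-like cells (24.6 ± 25.9), naive-like cells (15.0 ± 4.61), effector-like CD4+ cells (12.5 ± 14.4), NK-like cells (2.55 ± 3.10), and regulatory-like CD4+ cells (0.493 ± 1.39). No 2 neighbors in this order were apart by more than the sum of their SDs. The order was not the same in the pools with PancVAX. There cycling-like cells (24.3 ± 10.8) were above the *Ifit3 Ifit1* cluster (19.0 ± 24.2), and naive-like (12.2 ± 3.39) above cytotoxic-like cells (7.82 ± 1.81). *Trgv2* had a similar order, from 283 ± 40.2 CPM in exhausted-like to 0.749 ± 1.48 CPM in regulatory-like cells. These are descriptions, since *Trgv2* and *Tcrg-C2* also stood among the 10 leading genes of the exhausted-like cluster although no TCR gene had been used to draw it.

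Per cell, after thinning to 1000 UMIs, 21.7% of exhausted-like cells had a *Trgv2* UMI (exact 95% binomial interval 20.4%–23%) and 12.3% a *Tcrg-C2* UMI (11.3%–13.4%). Without thinning the shares were 54.6% and 41.2%, at a median of 4804.5 UMIs. Cytotoxic-like cells had 2.54% and 0.945% after thinning (5.96% and 2.67% without, median 2992 UMIs). Macrophages or monocytes, which should lack both, had 0.0922% and 0.0213% (0.270% and 0.149% without, median 4031 UMIs). The intervals cover counting error only.

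The constant genes were spread differently. *Tcrg-C1* was at 368 ± 115 CPM in the γδ-like cluster and at most 25.6 ± 56.5 CPM in any CD8+ state. That highest mean, of cycling-like cells, rested on 1 pool at 165 CPM, with a median of 5.33 CPM. *Tcrg-C4* was at 91.3 ± 19.7 CPM in γδ-like, 49.9 ± 24.4 in NK-like, 19.0 ± 7.16 in exhausted-like, and 16.3 ± 7.10 CPM in naive-like cells. *Trdc* was at 235 ± 116 CPM in γδ-like cells, then at nearly equal levels in NK-like (41.4 ± 18.2) and naive-like cells (41.3 ± 11.3), and at 0.594 ± 1.04 CPM in the exhausted-like cluster. *Tcrg-C3* had its highest mean in the exhausted-like cluster, at 3.29 ± 3.07 CPM.

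**Figure D3:**
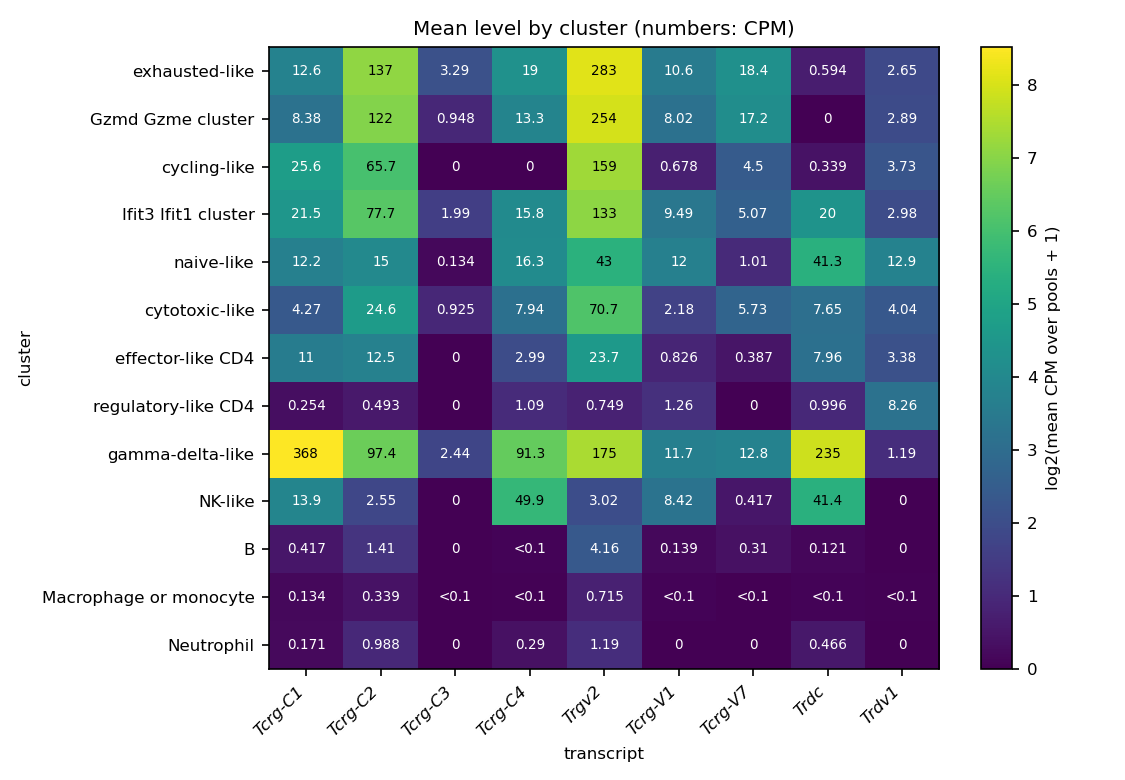
Mean level over the 8 pools of each transcript (columns) by cluster (rows), with the CPM printed in each cell and the color on a log2(CPM + 1) scale, to be read down a column. *Tcrg-C2* and *Trgv2* are highest in exhausted-like cells (137 and 283 CPM), *Tcrg-C1* and *Trdc* in γδ-like cells (368 and 235 CPM), and NK-like cells show *Tcrg-C4* (49.9 CPM) with little *Tcrg-C2* (2.55 CPM).

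The checkpoint antibodies were compared over the same CD8+ T cells, 4 pools with and 4 without each. With anti–PD-1, 0 of the 9 transcripts and 0.0% of 10911 genes were past the threshold by edgeR, 2 transcripts and 500 genes had an unadjusted *P* below 0.05, and DESeq2 called 0 transcripts and 3 genes. *Tcrg-C2* had a log2 fold change of -0.10 (95% interval -0.26 to 0.06) and *Trgv2* of 0.03 (-0.18 to 0.23). With anti–CTLA-4, 0 transcripts and 0.00917% of genes (1 gene) were past it by edgeR, 2 transcripts and 468 genes had an unadjusted *P* below 0.05, and DESeq2 called 0 transcripts and 2 genes. *Tcrg-C2* was at 0.01 (-0.15 to 0.17) and *Trgv2* at -0.02 (-0.23 to 0.18). The intervals of the rare transcripts were wider, as with *Tcrg-V1* under anti–CTLA-4 (1.24, 0.38 to 2.10, adjusted *P* = 0.990, edgeR with Benjamini-Hochberg).

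Between the 2 libraries of a treatment, whole tumor and Percoll, 1 of the 9 transcripts was past the threshold, where 6.83% of 10238 genes were. *Tcrg-V7* fell by 0.54 ± 0.19 (log2, SE) in Percoll libraries (adjusted *P* = 0.0455, edgeR with Benjamini-Hochberg), yet was higher in Percoll in 4 of 8 pools, at 8.21 ± 6.45 CPM against 12.5 ± 13.2 CPM. The call was lost with DESeq2 (adjusted *P* = 0.368) and without any 1 of 3 treatments (isotype control, both antibodies, or PancVAX with anti–PD-1), with adjusted *P* values up to 0.267. *Tcrg-C2* was lower in Percoll in 7 of 8 pools by a log2 of -0.24 ± 0.06 (adjusted *P* = 0.00719, edgeR with Benjamini-Hochberg), which is within the fold limit. *Trgv2* was at -0.01 ± 0.08.

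Receptor contigs, deposited for the Percoll libraries, separate CD8+ T cells with a sequenced β chain from the rest. A productive TRB contig was found in 4875 of 5907 cells (82.5%). Cells with a contig had a median of 4258 UMIs and cells without one 2626.5, so that the 2 sets also differed in depth. Both *Tcrg-C2* and *Trgv2* were present in cells with a sequenced β chain. *Trgv2* was at 67.2–286 CPM with and 33.3–277 CPM without a contig, higher with it in 7 of 8 libraries, and *Tcrg-C2* at 32.1–128 and 11.9–150 CPM, also higher in 7 of 8. In the 4 libraries with PancVAX *Tcrg-C2* was at 32.1–42.7 CPM with and 11.9–19.6 CPM without a contig, and the exception in both genes was the library of isotype control. Within the exhausted-like cluster the levels were nearly the same, with *Trgv2* at 293 CPM in 1979 cells with and 299 CPM in 215 cells without a contig, and *Tcrg-C2* at 132 and 143 CPM.

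*Trdc* was the 1 transcript of 8 tested that was past the threshold between cells with and without a TRB contig, where 2.02% of 8747 genes were (*Tcrg-C3* was too low to be tested). It passed the filter on low counts, 8.96 CPM in at least 2 libraries, through the cells without a contig alone, so that the call was partly set by the filter and its values are a description. It was at 0–3.42 CPM in cells with a contig and 10.5–130 CPM in cells without, lower with a contig in 8 of 8 libraries. In cells without a contig it was at 79.2, 115, 130, and 115 CPM in the libraries of isotype control, anti–PD-1, anti–CTLA-4, and both antibodies, and at 52.2, 13.5, 10.5, and 14.3 CPM with PancVAX added. The log2 fold change was -5.02 ± 0.33, and -5.44 among cells of 3000 or more UMIs. *Trgv2*, at 0.48 ± 0.11 (adjusted *P* = 0.00312, edgeR with Benjamini-Hochberg), was just under the fold limit, was called with DESeq2 (0.52), and was at 0.32 (adjusted *P* = 0.161, edgeR with Benjamini-Hochberg) among cells of 3000 or more UMIs. Intervals of *Tcrg-C1* (-1.51 to -0.29), *Tcrg-V1* (-1.83 to -0.12), and *Trdv1* (-2.63 to -0.54) lay below 0 without passing the adjustment, and *Trdv1* also entered through the cells without a contig alone. The 3 were nevertheless higher with a contig in 2, 3, and 4 of 8 libraries, and the direction of *Tcrg-V1* turned in the CD8 gate. These weaker values hung on single libraries: without that of isotype control *Tcrg-C1* (-1.02), *Tcrg-C2* (0.51), *Trgv2* (0.56), and *Trdv1* (-1.73) were also called, and *Trgv2* was called without the library of anti–CTLA-4 (0.58) or both antibodies (0.56). *Trdv1* was further called without the library of anti–PD-1 (-1.72), PancVAX with anti–PD-1 (-2.04), or all 3 agents (-1.97), *Tcrg-V1* without all 3 agents (-1.58), and *Tcrg-V7* without anti–CTLA-4 (2.11). *Trdc* was called in each of these fits. Both *Trdc* and *Trdv1* reached 8.96 CPM in 0 of 8 libraries with a contig, so that their repeated calls add no support.

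**Figure D4:**
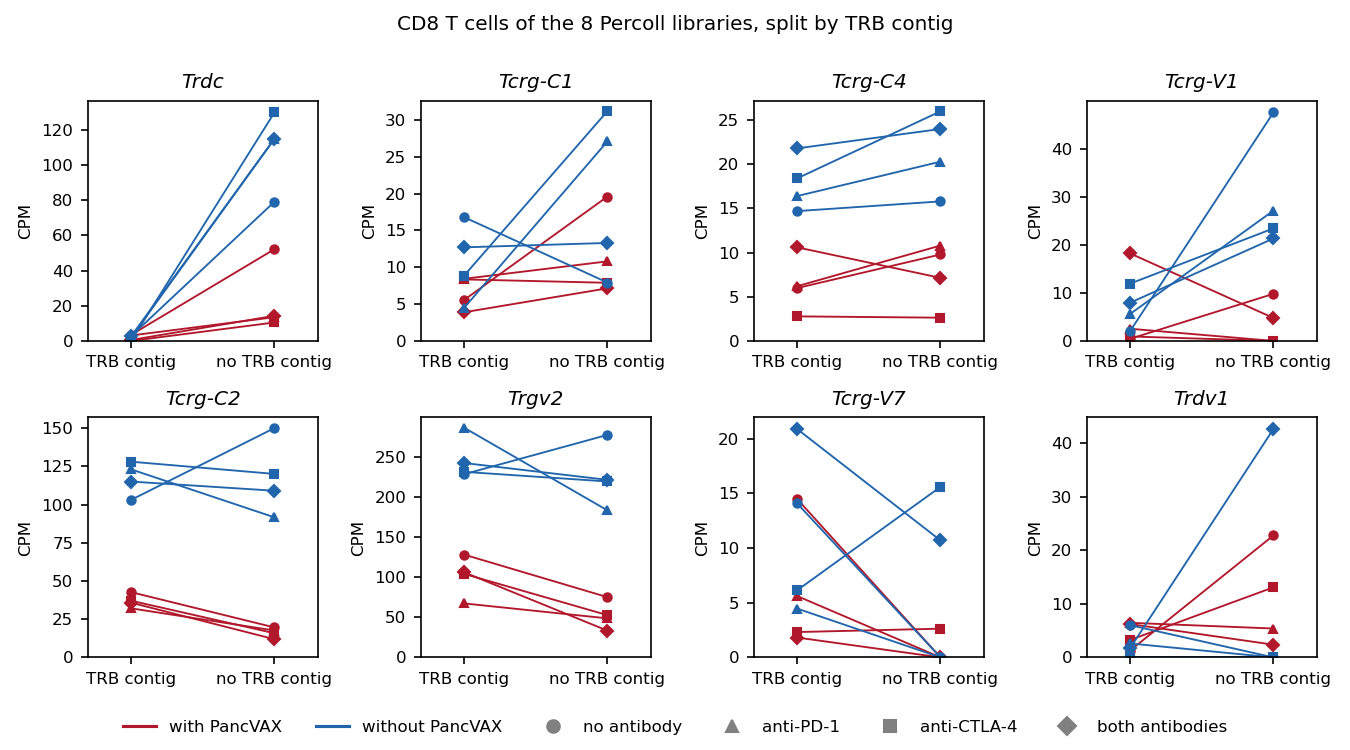
Levels in CD8+ T cells with and without a TRB contig in the 8 Percoll libraries, in CPM on linear axes from 0, each line joining both values of 1 library. *Trdc* is at 0–3.42 CPM with and 10.5–130 CPM without a contig, whereas *Tcrg-C2* and *Trgv2* are present on both sides, with the 4 libraries with PancVAX lowest on each.

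The *Trdc* of the CD8+ set came mostly from 1 cluster. Of 271 T and NK cells with a *Trdc* UMI, 103 (38.0%) were naive-like, 60 (22.1%) NK-like, and 47 (17.3%) γδ-like, and 5 were exhausted-like. Of the 103 naive-like cells 7 had a *Cd8a* UMI, 34 had a *Tcrg-V4* UMI, and 22 a *Tcrg-V1* UMI, and 14 of the 59 from Percoll libraries had a TRB contig. Naive-like cells without a contig had *Trdc* at 244 CPM against 8.75 CPM with one, and *Cd8a* UMIs in 15.8% of cells against 51.0%. In the CD8 gate, defined by a CD3 and a *Cd8a* or *Cd8b1* UMI and no *Cd4*, *Ncr1*, or *Klrb1c* UMI, *Trdc* was at 1.27 ± 0.784 CPM (SD, n = 8 pools) and too low to be tested by contig. Among CD8+ T cells with a TRB contig, *Trdc* UMIs were found in 14 of 908 cells without a TCR α (TRA) contig (1.54%), 6 of 3662 with 1 (0.164%), and 0 of 305 with 2 or more, which allows a share of up to 0.984%.

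V and C transcripts of 1 γ cluster tended to be found in the same αβ T cells. Among exhausted-like cells with a TRB contig, 40.5% of the 74 with a *Tcrg-V1* UMI also had *Tcrg-C4*, against 6.09% of those without. *Tcrg-C1* was found in 25.8% of the 93 cells with *Tcrg-V7* and in 2.65% of those without, and *Tcrg-C2* in 56.6% of the 1110 cells with *Trgv2* and 19.8% of those without. Across clusters, *Tcrg-C4* was in 5.38% of *Tcrg-V7* cells and 7.48% of the others, *Tcrg-C1* in 5.41% of *Tcrg-V1* cells and 3.67% of the others, and *Tcrg-C2* in 53.8% of *Tcrg-V7* cells and 39.8% of the others. Median depth was 5499.5 and 5105 UMIs with and without *Tcrg-V1*, 5103 and 5116 for *Tcrg-V7*, and 5570 and 4492 for *Trgv2*. No test was made, since cells of 1 clone can share their rearrangements.

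A part of the cells with a rare γ transcript belonged to single large clones. A clone was taken as the cells of a library that shared their TRBV segment and CDR3, which gave 2476 clones, 13 of them with 20 or more cells. The nucleotide sequence of the CDR3 was not required to match, so that a clone can join cells of different rearrangements. The clone with most cells of a transcript held 24.8% of the cells with *Tcrg-V1*, 19.5% of those with *Tcrg-C3*, 17.3% with *Tcrg-V7*, 8.94% with *Tcrg-C1*, and 8.82% with *Tcrg-C4*, and the cells with these transcripts came from 56, 16, 64, 93, and 129 clones. The TRB CDR3 sequences of 5 clones are shown, namely the largest clone, those with the highest shares of *Tcrg-V1*, *Tcrg-V7*, and *Trgv2*, and the larger of the 2 with no *Trgv2*, with capitals for the cysteine codon that opens and the phenylalanine codon that closes the CDR3. They are named by V gene, treatment, and number of cells. Each is the most frequent nucleotide sequence of its clone, and the number of cells is that of the whole clone.
TRBV5, anti–CTLA-4, 79 cells: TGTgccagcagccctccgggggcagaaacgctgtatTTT
TRBV20, all 3 agents, 75 cells: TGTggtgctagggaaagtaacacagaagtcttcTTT
TRBV5, both antibodies, 52 cells: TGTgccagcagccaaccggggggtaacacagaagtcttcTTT
TRBV16, both antibodies, 35 cells: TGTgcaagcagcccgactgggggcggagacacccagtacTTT
TRBV16, PancVAX with anti–CTLA-4, 26 cells: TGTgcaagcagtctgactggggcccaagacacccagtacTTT

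The first sequence was found in 57 of the 79 cells of the largest clone, so that its shares can be those of different rearrangements. Of the 79 cells, 73.4% had a *Trgv2* UMI and 0 a *Tcrg-V1* or *Tcrg-V7* UMI (which allows up to 3.8%). The TRBV20 clone had 75 cells, with *Tcrg-V1* in 33.3% of them (exact 95% interval 22.9%–45.2%) and *Tcrg-C4* in 24% (14.9%–35.3%). It held 25 of the 101 *Tcrg-V1* cells with a TRB contig, and without it the *Tcrg-V1* level of its Percoll library went from 16.8 to 2.85 CPM and that of the pool with all 3 agents from 15.4 to 7.19 CPM. The TRBV5 clone of the pool with both antibodies had 52 cells, with *Tcrg-V7* in 36.5% and *Tcrg-C1* in 21.2%, and 0 with *Tcrg-V1* or *Tcrg-C4* (which allows up to 5.77%). It held 19 of 110 *Tcrg-V7* cells, and the *Tcrg-V7* level was 7.39 CPM without it and 20 CPM with it in the Percoll library, and 16.5 and 24.2 CPM in the pool. The pool values include the whole tumor library, where no clone could be told and no cell was left out.

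The TRBV16 clone of 35 cells of the same pool combined *Trgv2* in 88.6% of cells with *Tcrg-V1* in 22.9%, *Tcrg-C3* in 22.9%, and *Tcrg-V7* in 17.1%. A second TRBV16 clone of that pool, with 52 cells, had *Trgv2* in 46.2%, *Tcrg-C3* in 15.4%, *Tcrg-V1* in 1.92%, and *Tcrg-V7* in 0. The TRBV16 clone of PancVAX with anti–CTLA-4 lay mostly in the cytotoxic-like cluster (22 of 26 cells), had 0 cells with *Trgv2* or *Tcrg-C2*, which allows a share of up to 11.5%, and had a median of 2814 UMIs. Of 2 TRBV26 clones with PancVAX and anti–PD-1, each of 22 cells, that with 21 cytotoxic-like cells was also at 0 for both genes, and that with 16 exhausted-like cells had each of them in 54.5%. In the 11 mostly exhausted-like large clones the share with *Trgv2* ran from 36.0% to 88.6% and that with *Tcrg-C2* from 26.7% to 65.0%. *Tcrg-V7* was found in 0 cells of 7 of them, *Tcrg-V1* of 5, and *Trdc* of all 11.

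**Figure D5:**
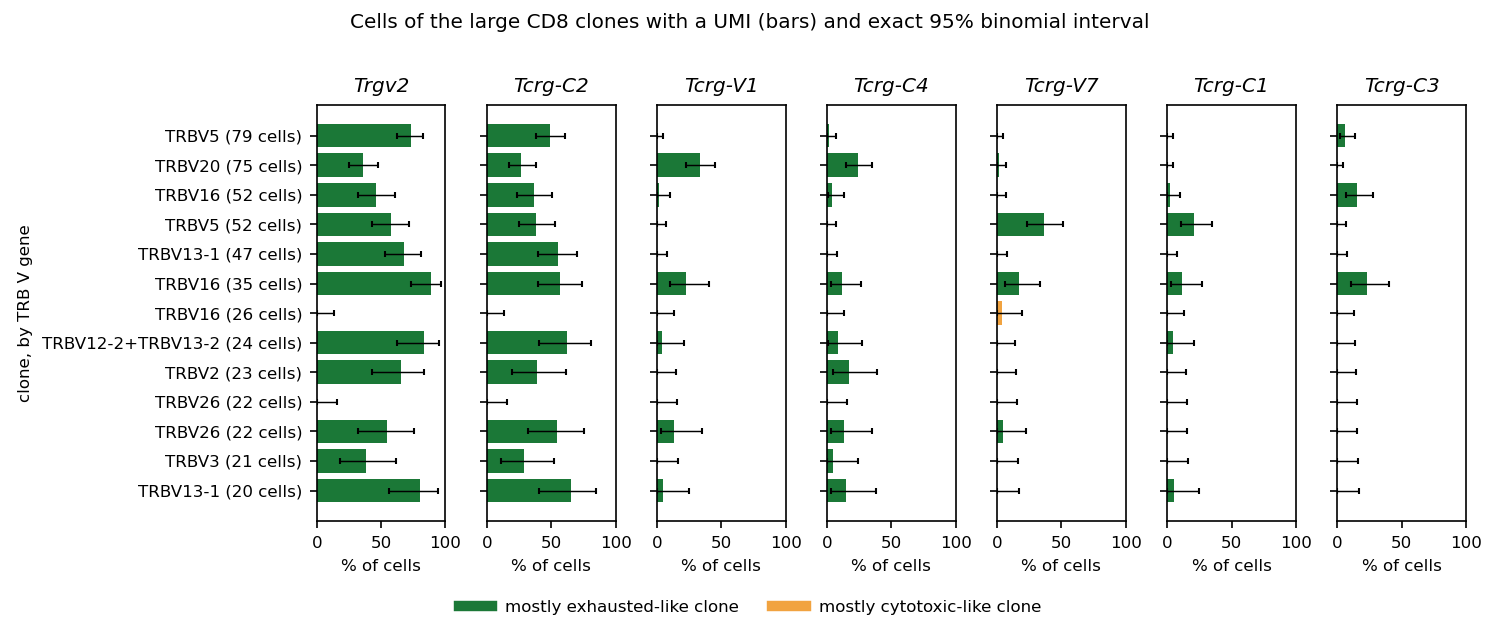
Share of cells with a UMI of 7 γ transcripts in the 13 CD8+ clones of 20 or more cells, in percent from 0 to 100, with exact 95% binomial intervals. *Trgv2* and *Tcrg-C2* are found in all 11 mostly exhausted-like clones (36.0%–88.6% and 26.7%–65.0% of cells), *Tcrg-V1* reaches 33.3% in the TRBV20 clone, and *Tcrg-V7* 36.5% in the TRBV5 clone of 52 cells.

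NK cells, gated by *Ncr1* or *Klrb1c* without CD3, *Cd4*, *Cd8a*, or *Cd8b1* UMIs (436 cells), were compared with the CD8 gate. Of 7 transcripts tested, 5 were past the threshold, 2 higher and 3 lower, where 16.3% of 10510 genes were. Of the 5, *Tcrg-C4* alone passed the filter on low counts, 5.39 CPM in at least 2 pools, on both sides. *Trdc* passed it through the NK gate and the 3 lower ones, with at most 3 UMIs in the NK gate, through the CD8 gate, so that their calls were partly set by the filter and their values are a description. *Trdc* was at 44.4, 68.5, 45.4, and 30.7 CPM with isotype control, anti–PD-1, anti–CTLA-4, and both antibodies, and at 38.7, 34.7, 36.6, and 17.9 CPM with PancVAX added, while no pool of the CD8 gate was above 2.45 CPM. Its log2 fold change was 4.80 ± 0.37. *Tcrg-C4* rose by 1.94 ± 0.29 (adjusted *P* = 3.11e-07, edgeR with Benjamini-Hochberg), at 47.8 ± 31.5 CPM against 11.5 ± 6.65 CPM, although 1 NK pool of 31 cells, PancVAX alone, was at 0.

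*Tcrg-C2*, *Trgv2*, and *Tcrg-V7* were nearly absent from the NK gate. *Tcrg-C2* was at 0 in all 8 pools, 0 of 436 cells, which allows a share of up to 0.688% of cells with a UMI, and was at 85.3 ± 48.2 CPM in the CD8 gate. Over the summed cells it was at least 39.2-fold lower, with 3 UMIs as the floor of the whole NK gate. *Trgv2*, with 3 UMIs in the NK gate, was at 2.37 ± 3.62 CPM against 175 ± 80.3 CPM, and the ratio of the summed CD8 gate to the NK gate was 81.7 (exact 95% interval for counting error 27.9–396). *Tcrg-V7* had 1 UMI in the NK gate, a ratio of 15.3 (2.74–608). *Tcrg-C1* (0.83, 95% interval -0.01 to 1.68) and *Tcrg-V1* (-0.12, -1.27 to 1.02) were not past the threshold, and *Tcrg-C3* and *Trdv1* were not tested. None of the 225 NK-gate cells of Percoll libraries had a TRB contig, which allows up to 1.33%.

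A γδ program gate was set by a CD3 UMI, no *Cd4*, *Cd8a*, *Cd8b1*, *Ncr1*, or *Klrb1c* UMI, and at least 2 of 10 genes of the IL-17–type γδ program, none of them a TCR gene (214 cells, 11–52 per pool). The gate was mixed and went against a pure γδ label: of its 120 cells from Percoll libraries, 64 (53.3%) had a TRB contig, *Trac*, the α constant gene, was at 182 ± 67.1 CPM, and 52 cells lay in the effector-like CD4+ cluster against 115 in the γδ-like cluster. Of the 9 transcripts, 3 were higher than in the CD8 gate and 0 lower, where 13.8% of 10557 genes were past the threshold. *Tcrg-C1* was at 236, 274, 345, and 369 CPM with isotype control, anti–PD-1, anti–CTLA-4, and both antibodies, and at 152, 80.9, 211, and 187 CPM with PancVAX added, against 3.60–19.3 CPM in the CD8 gate. All pools were apart, and the log2 fold change was 4.42 ± 0.22 (adjusted *P* = 1.14e-75, edgeR with Benjamini-Hochberg). *Tcrg-C4* rose by 2.49 ± 0.31 to 64.6 ± 22.3 CPM (adjusted *P* = 7.15e-14, edgeR with Benjamini-Hochberg). *Trdc* was at 194 ± 108 CPM against 1.27 ± 0.784 CPM (log2 fold change 6.93 ± 0.31), but passed the filter of 5.44 CPM through the γδ program gate alone, so that this too is a description.

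*Tcrg-C2* and *Trgv2* did not pass the test between the γδ program and CD8 gates over the 8 pools. *Tcrg-C2* was at 11.7–271 CPM in the γδ program gate, with a difference of -0.38 (log2, 95% interval -0.82 to 0.06), and *Trgv2* at 70.3–197 CPM, with -0.44 (-0.79 to -0.10, adjusted *P* = 0.0731, edgeR with Benjamini-Hochberg). The mean of *Trgv2* was above that of the CD8 gate in the pools with PancVAX (119 ± 36.4 and 101 ± 16.9 CPM) and below it in those without (162 ± 42.4 and 249 ± 14.5 CPM), and whether the 2 differences differ was not tested. *Trgv2* was past the threshold without the pool of PancVAX with anti–PD-1, at -0.68 (adjusted *P* = 0.00665, edgeR with Benjamini-Hochberg), and without that of PancVAX with anti–CTLA-4, at -0.55 (adjusted *P* = 0.0342, by the same test). The 4 pools with PancVAX had less *Tcrg-C1* in this gate (80.9–211 CPM) than the 4 without (236–369 CPM), which was not tested. In the γδ-like cluster *Tcrg-C1* overlapped, at 241–557 CPM with and 226–440 CPM without PancVAX. The gate held 141 cells with and 73 without PancVAX, the cluster 75 and 71. *Trdc* was at 59.0 CPM in the 64 cells of the gate with a TRB contig and 417 CPM in the other 56 of Percoll libraries. The part of cells with an αβ receptor in the levels of this gate was not tested.

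PancVAX was also compared in cells that had not served for the choice of the genes. In the NK gate *Tcrg-C4* alone was abundant enough, at 48.0 ± 20.7 CPM without and 47.7 ± 43.4 CPM with PancVAX (SD, n = 4 each), and its log2 fold change was -0.01 ± 0.43 (95% interval -0.89 to 0.87), so that sizable changes in either direction lay within the interval. By edgeR 0 of 3335 genes (0.0%) were past the threshold there, with 272 genes, *Tcrg-C4* not among them, at an unadjusted *P* below 0.05 and 0 genes called by DESeq2. In CD4+ T cells, where 3.96% of 7199 genes were called, 0 of the 9 transcripts were abundant enough for the test. *Tcrg-C2* was at 1.79–19.8 CPM without and 2.03–5.66 CPM with PancVAX, and *Trgv2* at 2.72–41.8 and 4.25–13.2 CPM, both with overlap.

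The 27 other γ and δ segments, those shared by the α and δ chains included, were sparse in the CD8 gate, at 9.91 CPM or less over its summed cells. At most 12 were tested in a comparison. Against the CD8 gate, cells of the γδ program gate had 7 higher and 1 lower of 12, where 13.8% of all genes were past the threshold, but 6 of the 8 passed the filter on low counts through 1 side alone, *Tcrg-V6* and *Trav14d-3-dv8* excepted. *Trdv4* led with 9.60 ± 0.24, followed by *Tcrg-V5* (5.97 ± 0.71), *Tcrg-V4* (5.76 ± 0.51), and *Tcrg-V6* (5.12 ± 0.31), and *Trdv4* was at 576 ± 325 CPM there. In NK cells 2 of 8 were higher, *Trdv4* (7.34 ± 0.37, at 106 ± 24.8 CPM) and *Trdv2-2* (5.48 ± 0.44), and 5, all at 0 UMIs there, were lower (16.3% of all genes), each of the 7 having entered through the side where it was higher. Cells with a TRB contig had 5 of 12 lower, among them *Trdv5* (-4.17 ± 0.65) and *Tcrg-V4* (-3.25 ± 0.48), and 1 higher, *Tcrg-V3* (2.02% of all genes), and of these 6 *Trav13-4-dv7* alone passed the filter on both sides. With PancVAX 2 of 12 were higher and 2 lower in CD8+ T cells (11.0% of all genes), and 1 of 4 was higher in CD4+ T cells (3.96%). For PancVAX the side through which a gene passed the filter was not examined. In γδ-like cells 79.5% of the 39 with a *Tcrg-V6* UMI had *Trdc*, against 15.0% of the others.

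The TCR complex was measured through 7 genes, the α and β constant genes and the CD3 chains. The CD3 chains are also part of a γδ receptor, so that counts over the 7 genes are not of the αβ receptor alone. In the γδ program gate 5 of 7 were lower than in the CD8 gate (13.8% of all genes past the threshold), with a median of -0.70 (-0.18 over all genes), and in the NK gate 6 of 7 were lower (16.3%), with the CD3 genes lower by the gate itself. Between cells with and without a TRB contig 0 of 7 were called (2.02%), with a median of 0.23, and with PancVAX, where 11.0% of all genes were called, *Trbc1* (-0.77 ± 0.10) and *Cd3g* (-0.52 ± 0.06) were lower in CD8+ T cells. Of 16 genes of the γδ program, 14 of 15 tested were higher in the γδ program gate, which 10 of the 16 served to define, so that nothing is read from the count. In the NK gate 4 of 8 were higher and 2 lower (16.3% of all genes), and of these 6 *Zbtb16*, higher, had passed the filter through the NK gate alone. With PancVAX 4 of 8 were higher in CD8+ T cells (11.0%), and 4 of 7 were higher and 1 lower in CD4+ T cells (3.96%). *Il17a* was among the 4 in CD4+ T cells, at 6.80 ± 1.22. The side through which a gene passed the filter was not examined for PancVAX, so that nothing is read from these counts. With a TRB contig 1 was higher and 1 lower of 7 (2.02%), and in Percoll libraries 1 of 7 was lower (6.83%).

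Of 11 factors known to act on the γ locus, 1 was past the threshold with PancVAX in CD8+ T cells, where 11.0% of all genes were, so that the count is near the background. This was *Il7r*, the α chain of the IL-7 receptor, at 0.76 ± 0.09. In the NK gate *Il7r* (-2.40 ± 0.17) and *Bcl11b* (-4.41 ± 0.32) were lower and *Runx1*, *Myb*, *Gata3*, and *Tcf7* higher, 6 of 11 against 16.3% of all genes. In the γδ program gate *Il7r* (1.01 ± 0.15) and *Runx1* (2.24 ± 0.23) were higher and *Runx3* lower, 3 of 11 against 13.8%. With a TRB contig *Lef1* was lower (1 of 11, 2.02% of all genes), and in Percoll libraries *Bcl11b* (1 of 11, 6.83%). In CD4+ T cells with PancVAX *Lef1* was higher and *Myb* lower (2 of 11, 3.96%). No gene of the 4 lists was past the threshold with either antibody or with PancVAX in the NK gate.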

How the data were processed

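Single-cell 5′ RNA libraries (10x Genomics) and TCR libraries of tumor cells were deposited by the authors as counts: 1 matrix of UMI counts per gene and barcode, made with Cell Ranger 4.0.0 on mm10, with a barcode suffix for each of 16 RNA libraries, and a table of productive TRA and TRB contigs with UMI counts for the 8 Percoll libraries. The submitters' processing notes also name Seurat. The gene annotation and the handling of reads shared by similar genes are not given in the sources used here.

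From these, barcodes were kept at 200–3000 genes and 1000–10000 UMIs if fewer than 10% of UMIs were mitochondrial and none came from hemoglobin. No doublet caller was run, and doublets were limited by the upper bounds alone. Cells were clustered on 2000 variable genes, with 125 TCR genes left out and cell cycle scores regressed out. The first 25 components were aligned between the 2 preparations by a Harmony-type correction, and the shared-neighbor graph (20 neighbors) was split by igraph 0.11.9 (Louvain, resolution 0.6). Clusters were named from marker lists. UMIs were summed per population and pool, or per library for preparation and contigs, and levels given as UMIs of a gene per 1e6 UMIs of that sum (CPM). Sums were tested with edgeR 4.0.16 (quasi-likelihood F test, two-sided) in R 4.3.3 with Benjamini-Hochberg adjustment over all genes tested. The 3 agents were additive terms, and pool or library was a factor where sums of the same pool were compared. SEs and 95% intervals of log2 fold changes were derived from the F statistic and its degrees of freedom. DESeq2 1.42.0 served as an alternative. A gene was called at an adjusted *P* below 0.05 and an absolute log2 fold change above 0.5. The scripts were tested on simulated counts. Shares of cells with a UMI were thinned to 1000 UMIs per cell, with exact (Clopper-Pearson) 95% intervals, and a count of 0 was given the limit of 3 counts, all for counting error only. Other alternatives were the filter on low counts, the mitochondrial limit, 1 preparation alone, the CD8 gate, single states, and leaving out each pool or library.

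All 9 genes and the genes of 4 lists were named by rule, and genes with the most similar pattern by Pearson's r. The genes and lists were chosen with earlier results of these data known. Coordinates are from RefSeq for GRCm38, and TRB sequences from the deposited contigs.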

Additional observations from a re-analysis of the deposited data

Results flagged for a closer look

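In groups of 4 or 8 pools, a value was set aside for a closer look when its distance from the nearest other pool was large for the range of the group (Dixon's criterion). Of 69 groups of values 9 had such a pool, where chance gives about 1 in 20 for continuous values. That rate does not apply to 4 of the 9, in which every other pool was at 0. With all 3 agents, *Tcrg-V1* was at 15.4 CPM in CD8+ T cells (nearest pool with PancVAX 4.0) and at 43.1 CPM in exhausted-like cells (nearest 4.68), and *Trdv1* at 19.7 CPM in exhausted-like cells, where the other 3 pools with PancVAX were at 0. *Trdc* in exhausted-like cells was at 0.52 CPM, a single UMI, with PancVAX and anti–PD-1 and at 0 in the other 3. In the NK gate *Tcrg-V7* was at 4.38 CPM, also a single UMI, with both antibodies and at 0 in the other 7 pools. In the γδ program gate *Tcrg-C2* was at 271 CPM with anti–CTLA-4, a pool of 11 cells (nearest 98.4), where *Tcrg-V1* was at 0 (nearest 9.47). With PancVAX and anti–PD-1 that gate had *Tcrg-C3* at 10.1 CPM, against 0 in the other 7 pools, and *Trdv1* at 15.2 CPM (nearest 5.86).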

How the results depend on the processing

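Counts for PancVAX in CD8+ T cells are a description, since the genes were chosen on that contrast: 7 of the 9 transcripts were past the threshold, 4 in the CD8 gate, 1 within exhausted-like, 4 within cytotoxic-like, and 0 within naive-like cells, and 4 each among Percoll cells with and without a TRB contig. The count over all genes, 1201, was 1238 in the CD8 gate, 24, 162, and 1 within these states, and 891 with and 371 without a contig. Without single pools the counts were 1021–1243 genes and 5–8 transcripts. The direction turned within naive-like cells for *Tcrg-C1* (log2 fold change 0.015), *Trgv2* (0.272), and *Tcrg-V1* (0.611), and within exhausted-like cells for *Tcrg-V1* (0.664).

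For anti–PD-1 DESeq2 called 3 genes and a fit with no filter on low counts 34, with 1 transcript, *Trdv1*. For anti–CTLA-4, with 1 gene in the reported fit, DESeq2 called 2, no filter 39, with 1 transcript, *Tcrg-V1*, and the CD8 gate, Percoll libraries, and whole tumor libraries 0. Without single pools 0–3 and 0–4 genes were called. Signs turned for anti–PD-1 in *Tcrg-C4* (-0.309, whole tumor), *Trgv2* (-0.100, Percoll), and *Tcrg-V7* (0.110, whole tumor), and for anti–CTLA-4 in *Tcrg-C1* (0.005, CD8 gate), *Tcrg-C2* (-0.021 in the CD8 gate, -0.012 in whole tumor and -0.012 with a mitochondrial limit of 5%), *Trgv2* (0.010, Percoll), and *Trdv1* (-0.069, Percoll). Without single pools the ranges for anti–PD-1 were -2.04 to 0.161 (*Tcrg-C3*), -0.148 to 0.134 (*Tcrg-C4*), -1.364 to 0.746 (*Tcrg-V7*), and -0.026 to 0.139 (*Trgv2*), and for anti–CTLA-4 -0.048 to 0.047 (*Tcrg-C2*), -0.122 to 0.088 (*Trgv2*), and -0.436 to 0.034 (*Trdc*).

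For preparation, DESeq2 called 452 genes in place of 699 and 0 transcripts, the CD8 gate 0 transcripts, and leaving out a treatment gave 600–801 genes and 0–1 transcripts. *Trgv2* turned to 0.018 with no filter and *Tcrg-V1* to 0.062 in the CD8 gate, and ranges without single treatments were -0.439 to 0.047 (*Tcrg-C3*), -0.268 to 0.063 (*Tcrg-V1*), -0.113 to 0.321 (*Trdc*), -0.142 to 0.904 (*Trdv1*), and -0.079 to 0.093 (*Trgv2*). For the TRB contig (177 genes, 1 transcript), DESeq2 gave 100 genes and 2 transcripts, no filter 228 genes and 3 transcripts, TRA and TRB against no contig 274 genes and 5 transcripts, the CD8 gate 89 genes and 0 transcripts, cells of 3000 or more UMIs 107 genes, and fits without 1 library 143–202 genes and 1–5 transcripts. DESeq2 gave no adjusted *P* for 4918 of the 8747 genes, so that its count has a smaller base. In the CD8 gate *Tcrg-C4* (0.756) and *Tcrg-V1* (1.341) turned.

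For the NK gate, fits without 1 pool called 1531–1744 genes and 5 transcripts each, *Tcrg-V1* ranged from -0.699 to 0.212 and was 0.115 by DESeq2. For the γδ program gate they called 1268–1356 genes and 3–4 transcripts, *Trdv1* ranged from -0.78 to 0.815, and requiring 3 program genes turned *Tcrg-V7* (0.342) and *Trdv1* (-0.652). PancVAX in the NK gate gave 15 genes with no filter and 0–2 without single pools, with *Tcrg-C4* from -0.387 to 0.28, and in CD4+ T cells 117 genes by DESeq2 and 152–314 without single pools. In CD4+ T cells DESeq2 gave no adjusted *P* for 1954 of 7199 genes. Without thinning, shares were 41.2% and 54.6% for *Tcrg-C2* and *Trgv2* in exhausted-like and 2.67% and 5.96% in cytotoxic-like cells. Without the TRBV20 clone, which was left out after seeing the data, *Tcrg-V1* with all 3 agents was at 7.19 CPM. The cause of these changes was not tested.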

Other observations

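The genes whose levels ran most like those of 3 of the transcripts were sought over 121 sums of population and pool in 17 populations, among 5778 genes, as Pearson's r of log2(CPM + 1). These are descriptions with no test, since sums of 1 pool share libraries. They name the closest of the genes searched and not of all genes. *Trgv2* does not appear below, although its order over the clusters was similar to that of *Tcrg-C2*. *Tcrg-C2* was most like *Abcb9*, a peptide transporter of lysosomes (0.778), *Cd8b1*, the CD8 β chain (0.77), *Cxcr6*, a chemokine receptor (0.766), *Cd3g* (0.756), and *Themis*, a signaling protein of T cell development (0.752). *Tcrg-C4* was most like *Txk*, a Tec family kinase (0.70), *Xcl1*, a chemokine of NK and CD8+ T cells (0.692), *Cd160* (0.682), *Gm14029* (0.677), and *Bcl2* (0.669). *Trdc* was most like *Klra7*, an NK receptor (0.658), *Tcf7* (0.611), *Klrb1c* (0.591), *Zfp36l2* (0.59), and *Ncr1* (0.571).

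Leaving out cells whose barcode sequence also occurred in another library changed the mean *Tcrg-C2* level of CD8+ T cells by -0.118% with and -0.375% without PancVAX, that of *Tcrg-C3* with PancVAX by -20.7%, and that of *Trdv1* with PancVAX by -6.93%. Of 2486 TRB nucleotide chains in CD8+ T cells, 27 were found in more than 1 library. Macrophages or monocytes of Percoll libraries had a TRB contig in 14 of 5846 cells (0.239%).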
